A study of Gallus gallus with 3 samples.

Results

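The genes described here are 10 transcription factors of the neural crest outside the SOX family. They are PAX3, PAX7, MSX1, MSX2, ZIC1 and TFAP2A, known as factors of the neural plate border, and SNAI2, FOXD3, ETS1 and TFAP2B, known as crest specifiers. They were taken by gene symbol from the annotation of the Affymetrix chicken genome array, and all 10 were found among 13009 named genes. The deposited data hold White Leghorn chicken neural crest cells (NCC) on 3 arrays, 1 per group. The study's methods describe biological replicates of each stage and their averaging, but the replicates are not analysed here, so no difference has a replicate check, no p-value was computed, and the number of arrays limits the precision. The HH9 array (HH is the Hamburger and Hamilton stage) holds cranial NCC according to the study's methods, from pooled heads, although its source label says trunk. The methods state that these heads were also freed of neural tube and notochord, and then treated with Dispase. Both other arrays hold trunk NCC (tNCC) from explants treated with Dispase to take off ectoderm and notochord, and the study also describes them as freed of the neural tube. All 3 cell preparations were selected with the HNK1 antibody, and purity was checked by HNK1 staining. The trunk labels conflict. One array is titled HH16 and carries HH19 in its age field, the other is titled HH19 and carries HH16 there, and both descriptions say HH16. They are called the title-HH16 array and the title-HH19 array here (titled HH16 and titled HH19 on the plots), and the stage of neither is taken as settled. Axial level, stage and dissection differ together between the HH9 array and the trunk arrays and cannot be told apart.

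In the embryo, signals of the BMP, WNT and FGF families set up a border between neural plate and ectoderm, where the PAX, MSX, ZIC and AP-2 factors are expressed together. These factors turn on a second tier, the specifiers, among them FOXD3 and SNAI2, which accompany the exit of crest cells from the dorsal neural tube. Several of the genes are not private to the crest. PAX3 and PAX7 are also expressed in the dorsal neural tube and in the dermomyotome of the somite, ZIC1 and the MSX genes in the dorsal neural tube, TFAP2A in ectoderm and ETS1 in endothelium.

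Of 38439 probe sets without controls, 17 were annotated to the 10 genes, 16 of them to a single gene. One probe set carried both ZIC1 and ZIC4, lay under the floor on all 3 arrays and was assigned to neither. Signals are linear intensities, and 22610 probe sets lay at or above the floor defined next on the HH9 array, 23437 on the title-HH16 array and 23143 on the title-HH19 array. Before a ratio was made, dimmer signals were lifted to a floor of 99.8, which is the 40th percentile over the 3 arrays. A ratio with 1 signal under the floor is a bound, written with "at least" or "at most", and none is given where both lie under it. The brightest probe set stands for a gene. By this choice 9 of the 10 genes lay above the floor on all 3 arrays, and ZIC1 lay above it on the trunk arrays only. PAX3, PAX7, SNAI2, FOXD3, TFAP2A, TFAP2B, MSX1 and MSX2 have 1 probe set each.

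**Figure D1:**
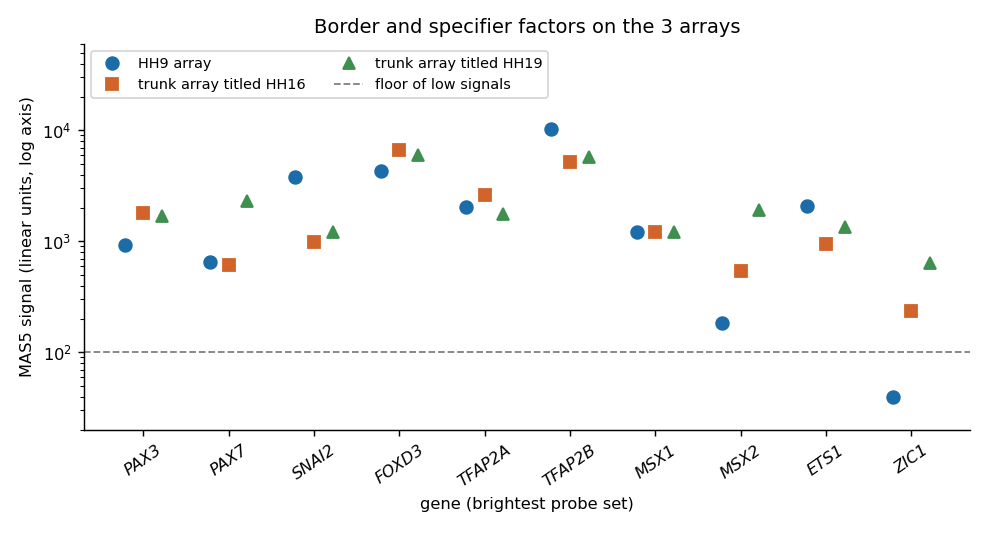
MAS5 signal (log axis) of the brightest probe set of each gene on the HH9 array (circles), the trunk array titled HH16 (squares) and the trunk array titled HH19 (triangles), 1 array per group and no error bars. In title order MSX2 and ZIC1 step upward over the 3 arrays. PAX7 is high on the title-HH19 array alone, SNAI2 is high on the HH9 array, and MSX1 lies between 1217 and 1225 on all 3.

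PAX7, a paired box factor of the border that is also found in dorsal neural progenitors and muscle precursors, stood apart on the title-HH19 array. Its signal was 649 on the HH9 array, 609.7 on the title-HH16 array and 2319.9 on the title-HH19 array. The first pair of these signals lay close together, 1.07-fold apart. Between the trunk arrays the signal was 3.80-fold brighter on the title-HH19 array, a log2 ratio of title-HH16 over title-HH19 of -1.93. By the titles this difference, and that of MSX2 below, runs opposite to the direction the study gives, and by the age fields it runs the same way. ISL1, which the study gives as up-regulated, also runs its way only by the age fields. So do POSTN, which it gives as down-regulated, and ADAM12, up-regulated there under the name of a similar gene. TWIST1 and GATA3, which it gives as up-regulated too, run its way only by the titles. Log2 ratios of title-HH16 over title-HH19 were 3.30 for ISL1, 1.68 for ADAM12 and -1.70 for POSTN. TWIST1 and GATA3 had bounds of at most -2.37 and at most -0.43, the latter under 2-fold. These genes are examples and not all of those the study names, and which label is right was not tested over all genes. In these bulk preparations, fewer cells of a type and less RNA per cell cannot be told apart. For PAX7, HH9 over title-HH19 gave a log2 ratio of -1.84, a 3.57-fold difference. Among 10681 genes with a ratio, PAX7 had the 21st lowest value of title-HH16 over title-HH19.

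PAX3, the close relative of PAX7, had another pattern. It measured 933 signal units on the HH9 array, 1814 on the title-HH16 array and 1691 on the title-HH19 array. The trunk arrays were 1.07-fold apart, and the HH9 array lay under both, by 1.94-fold and 1.81-fold. None of these differences reached 2-fold. The log2 ratio of title-HH16 over title-HH19 was 0.10 for PAX3, and the PAX7 ratio minus the PAX3 ratio was -2.03, which is 4.08-fold. For HH9 over title-HH16 the PAX7 ratio minus the PAX3 ratio was 1.05.

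MSX2, a homeobox factor induced by BMP signaling, had the widest measured span of the 10 genes, with only a bound for ZIC1. Its signal was 185 on the HH9 array, 535 on the title-HH16 array and 1935 on the title-HH19 array, so in title order it stood higher at each step. By the age fields the title-HH19 array comes between the others, and the signal peaks there. The study describes MSX2 as higher at HH16 than at HH9 or HH19. It was 3.61-fold dimmer on the title-HH16 array than on the title-HH19 array (log2 ratio -1.85, the 26th lowest of 10681 genes). The HH9 signal was 2.90-fold dimmer than that of the title-HH16 array (-1.54) and 10.5-fold dimmer than that of the title-HH19 array (-3.39, the 26th lowest of 10643 genes). MSX1, its relative and also a BMP target, was level, at 1225 on the HH9 array, 1223 on the title-HH16 array and 1217 on the title-HH19 array. These differ by at most 1.01-fold. The probe set of MSX1 is of a type (suffix _s_at) that may bind several transcripts, and it is the only one for this gene. The log2 ratio of MSX2 minus that of MSX1 was -1.86 for title-HH16 over title-HH19 and -3.40 for HH9 over title-HH19.

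ZIC1, a zinc finger factor of the border and the dorsal neural tube, had the same order of arrays as MSX2. Its brighter probe set had a signal of 39.4, under the floor, on the HH9 array, 236 on the title-HH16 array and 641 on the title-HH19 array. That is 2.72-fold dimmer on the title-HH16 array than on the title-HH19 array, a log2 ratio of -1.44. The HH9 signal was at least 2.36-fold dimmer than that of the title-HH16 array and at least 6.42-fold dimmer than that of the title-HH19 array. A second ZIC1 probe set kept this order with signals of 48.2, 85.4 and 180.5 on the same arrays. Only the last of these lies above the floor, which leaves a bound of at least 1.81-fold in favor of the title-HH19 array over either other array.

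Few genes took both steps, which follow the order of the titles and not that of the age fields. Of 10456 genes with both ratios, 7 (0.0669%) were at least 2-fold dimmer on the HH9 array than on the title-HH16 array and again at least 2-fold dimmer on the title-HH16 array than on the title-HH19 array. MSX2 and ZIC1 were 2 of these 7. The others were ATF3, a stress-induced transcription factor, CYP26B1, an enzyme that breaks down retinoic acid, GNG10, a G protein subunit, the secreted protein gene SCUBE2, and BPIFB2. Both ratios share the title-HH16 array with opposite sign, which by itself makes such double steps rarer, and ZIC1 takes its first step by a bound. This count was made after the signals of MSX2 and ZIC1 had been seen, so their presence in it was fixed, and it depends on the floor. It came to 17 genes when the 20th percentile was the floor and 40 genes with no floor, both times with MSX2 and ZIC1 among them, and 4 genes with 1 of the 2 at the 60th percentile. PAX7 belonged to a larger set of 84 genes (0.803%) that were at least 2-fold dimmer on the title-HH16 array than on the title-HH19 array and under 2-fold different between the HH9 array and the title-HH16 array.

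**Figure D2:**
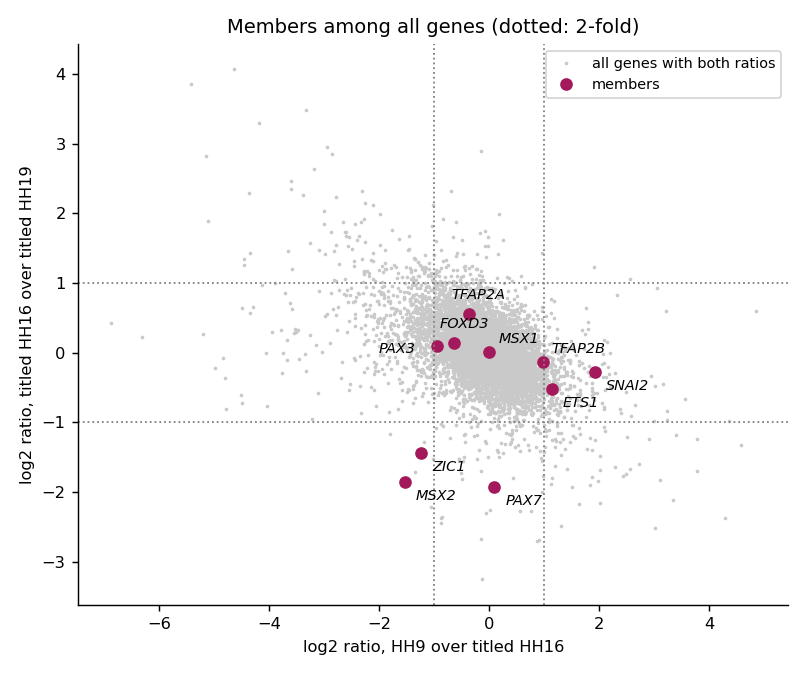
Each grey point is a gene, placed by its log2 ratio of HH9 over title-HH16 (x) and of title-HH16 over title-HH19 (y), and the 10 members are named. The axes share the title-HH16 array, which tilts the cloud. MSX2 and ZIC1 lie in the thinly filled lower left corner beyond both 2-fold lines, PAX7 lies straight below the centre at -1.93, and SNAI2 lies to the right at 1.92.

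TFAP2A and TFAP2B encode AP-2 factors that act at the border and in early crest. TFAP2A measured 2036 signal units on the HH9 array, 2623 on the title-HH16 array and 1781 on the title-HH19 array. It was 1.47-fold brighter on the title-HH16 array than on the title-HH19 array, the largest value of the 10 genes in that direction (log2 0.56). TFAP2B had signals of 10210.5, 5208 and 5712 on the HH9 array, the title-HH16 array and the title-HH19 array. The HH9 array was above both trunk arrays, by 1.96-fold and 1.79-fold, and these were 1.10-fold apart. In neither gene did a difference reach 2-fold, although TFAP2B passed it against the title-HH16 array (log2 1.13) when each array was centred on its median.

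SNAI2, a zinc finger repressor of cadherin genes in crest cells that leave the neural tube, was the clearest gene of the HH9 array. It had a signal of 3776 there, 997 on the title-HH16 array and 1206 on the title-HH19 array. The HH9 signal was 3.79-fold brighter than that of the title-HH16 array and 3.13-fold brighter than that of the title-HH19 array, with log2 ratios of 1.92 and 1.65. Among all genes with a ratio these were the 64th highest of 10697 and the 61st highest of 10643. The trunk arrays were 1.21-fold apart. FOXD3, a forkhead factor that holds crest precursors in an undifferentiated state, ran the other way and by less. Its signal was 4273 on the HH9 array, 6650.2 on the title-HH16 array and 6018 on the title-HH19 array. The HH9 array was 1.56-fold and 1.41-fold below the trunk arrays, which lay 1.11-fold apart.

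ETS1, a factor of cranial crest and of endothelium in the chick, gave a different answer with each probe set. The brightest probe set measured 2065 signal units on the HH9 array, 937 on the title-HH16 array and 1347 on the title-HH19 array, so HH9 was 2.20-fold above the title-HH16 array and 1.53-fold above the title-HH19 array. A second had signals of 449.9, 569.7 and 489, and another of 379, 383 and 464, on the same arrays in the same order. By these the HH9 array was not the bright one. The log2 ratios of HH9 over title-HH16 were 1.14, -0.34 and -0.02, a range of 1.48. The other 3 of the 6 ETS1 probe sets lay under the floor on all 3 arrays. Which transcripts each probe set reads is not known from the sources used here, and the ETS1 difference rests on 1 probe set.

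**Figure D3:**
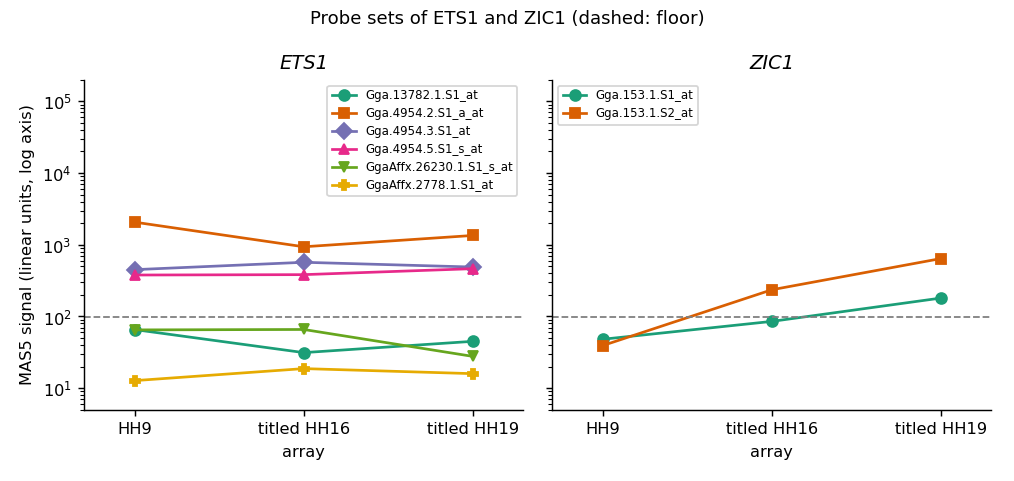
MAS5 signals (log axis) of the 6 probe sets of ETS1 (left) and the 2 probe sets of ZIC1 annotated to that gene alone (right) on the HH9 array, the title-HH16 array and the title-HH19 array, with the floor dashed. Of the 3 ETS1 probe sets above the floor only the brightest stands higher at HH9 than on the trunk arrays. Both ZIC1 probe sets climb in title order, but the dimmer one lies above the floor only on the title-HH19 array.

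Between the trunk arrays, 0 genes were at least 2-fold brighter on the title-HH16 array, where 1.93% of all genes with a ratio were. PAX7, MSX2 and ZIC1, or 3 of 10, were at least 2-fold brighter on the title-HH19 array, where 1.54% of all genes were. The median log2 ratio of the 10 genes was -0.20, against -0.02 for all genes, and their median size without sign was 0.40, against 0.22. For HH9 over title-HH16, 2 genes (SNAI2 and ETS1) were at least 2-fold brighter on the HH9 array, beside 3.20% of all genes, and 2 (MSX2 and ZIC1) were at least 2-fold brighter on the title-HH16 array, beside 6.80%. The median size of the log2 ratio was 0.97 for the 10 genes and 0.31 for all genes, while the signed medians were -0.18 and 0.01. For HH9 over title-HH19, 1 gene (SNAI2) was at least 2-fold brighter on the HH9 array, beside 2.58% of all genes, and 3 (MSX2, ZIC1 and PAX7) were at least 2-fold brighter on the title-HH19 array, beside 5.34%. Here the sizes were 0.85 and 0.27 and the signed medians -0.24 and -0.0004. Both HH9 comparisons use the same HH9 array, so their counts are not independent of each other.

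Grouped by textbook role, with the values already known, the members that differed lay as follows. All genes at least 2-fold dimmer on the HH9 array than on a trunk array, and all at least 2-fold different between the trunk arrays, were among the 6 border factors. Both genes at least 2-fold brighter on the HH9 array were among the 4 specifiers, ETS1 by 1 probe set only. The median log2 ratio of HH9 over title-HH19 was -1.35 for the border factors and 0.73 for the specifiers, and of HH9 over title-HH16 it was -0.66 and 1.06. PAX3 and TFAP2A, and above all MSX1, did not share the size of the other border factors, nor always their direction. Between the trunk arrays their log2 ratios were 0.10, 0.56 and 0.007, where PAX7, MSX2 and ZIC1 were negative. For HH9 over title-HH19, TFAP2A (0.19) and MSX1 (0.008) were not negative either. FOXD3 did not share the direction of SNAI2. The specifier medians use the brightest ETS1 probe set, where the other ETS1 probe sets above the floor gave -0.34 and -0.02 for HH9 over title-HH16. The split into roles was made with these values known, so it is no independent result, and it has no test.

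**Figure D4:**
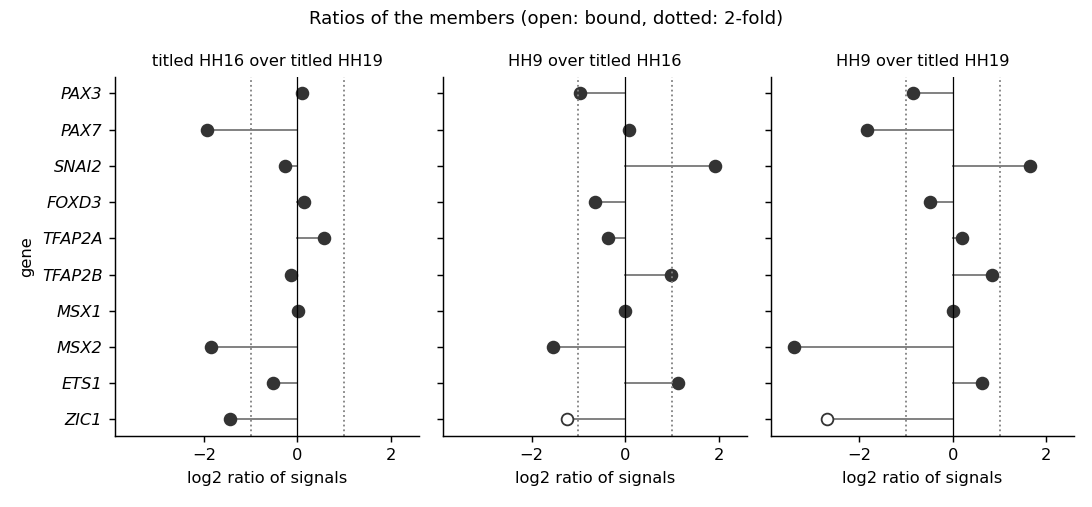
Log2 ratios of the 10 genes in each of the 3 comparisons, with open circles for bounds and dotted lines at 2-fold. In the left panel PAX7, MSX2 and ZIC1 lie beyond -1 and no gene lies beyond 1, and in both other panels SNAI2 lies furthest right and MSX2 furthest left, followed by the ZIC1 bound.

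How far a single probe set can be trusted was judged from genes with exactly 2 probe sets above the floor. Between the trunk arrays, the log2 ratios of the 2 probe sets of such a gene differed by a median of 0.22 and by 0.67 at the 90th percentile (2690 genes). For HH9 over title-HH16 these values were 0.26 and 0.75 (2609 genes), and the ETS1 range of 1.48 is wider. That range spans 3 probe sets, however, and a range over 3 tends to exceed a difference of 2. In 117 of the genes compared between the trunk arrays at least 1 probe set passed 2-fold, and in 91 of these only 1 of the 2 did. Where 1 probe set passed 3-fold (21 genes), the other ran the same way in 20 and passed 2-fold in 13. PAX7 and MSX2, each past 3-fold between the trunk arrays, have no second probe set. Probe sets of a gene can read different transcripts, so these differences are not pure measurement error, and they say nothing of the spread between embryos.

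Genes whose ratios lay nearest to those of PAX7, MSX2 and ZIC1 over the 3 arrays had other known roles. Likeness was the Euclidean distance between the log2 ratios of the 3 comparisons, over the 6976 genes that reached a signal of 399 on some array. With 3 arrays it describes little more than the order of the signals. Nearest to PAX7 were the matrix gene POSTN (distance 0.33), the receptor phosphatase gene PTPRZ1 (0.52) and the proteoglycan gene DCN (0.52). SCUBE2 (0.41), BPIFB2 (0.61) and CHAC1, an enzyme of glutathione breakdown (0.84), were nearest to MSX2. Those nearest to ZIC1 were CYP26B1 (0.27), GNG10 (0.28) and ALDH1A2, which makes retinoic acid (0.41).

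Other genes of the crest program set beside the members also split. The SOX family crosses here in SOX10, the crest marker, which measured 12314.6 signal units on the HH9 array, 15746 on the title-HH16 array and 17338 on the title-HH19 array, no step reaching 2-fold. SOX8 was lower at each step in title order, with 5006, 1330.4 and 569 on the same arrays. Of 16 other specifiers with a ratio, 1 (SOX8) was at least 2-fold brighter on the title-HH16 array, beside 1.93% of all genes. On the title-HH19 array 5 were, beside 1.54%. The 5 were TWIST1 and ID1, with log2 ratios of title-HH16 over title-HH19 of at most -2.37 and of -1.82, SNAI1 (at most -2.17), SOX9 (at most -1.47) and MYC (-1.06). The list's median was -0.19, beside -0.20 for the members and -0.02 for all genes. For HH9 over title-HH16, 8 of the 16 were at least 2-fold brighter on the HH9 array, beside 3.20% of all genes. Another 2 were at least 2-fold dimmer there, beside 6.80%. The median of the 16 was 0.88, where the members had -0.18. TFAP2C, the AP-2 relative of TFAP2A and TFAP2B, was one of the lower 2. Its signal was 18.8, under the floor, on the HH9 array, 1146 on the title-HH16 array and 933 on the title-HH19 array.

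Relatives of the members by gene family followed no single order. Of 15 with a ratio between the trunk arrays, 0 were at least 2-fold brighter on the title-HH16 array, beside 1.93% of all genes. On the title-HH19 array 4 were, beside 1.54%. The 4 were FOXD1 (log2 ratio of title-HH16 over title-HH19 -2.68), PAX6 (-2.44), SNAI1 and ZIC2 (-1.29). ZIC2, unlike ZIC1, was as bright on the HH9 array as on the title-HH19 array, at 2818 on the HH9 array, 1154 on the title-HH16 array and 2817 on the title-HH19 array. SNAI1, the relative of SNAI2, measured 311, 87.5 and 449 signal units on those arrays, and so was bright on the HH9 array and on the title-HH19 array and under the floor on the title-HH16 array. Of the ETS family, ETS2, FLI1, ETV1, ETV4 and ETV5 were under 2-fold different in all 3 comparisons, but ERG was at least 4.13-fold brighter on the HH9 array than on either trunk array. Genes of crest derivatives passed 2-fold between the trunk arrays only toward the title-HH16 array. Those that did were 4 of 7 sensory neuron genes with a ratio (NEUROD1, ISL1, NEUROD4 and NEUROG1, list median 1.85) and 2 of 4 sympathetic neuron genes (HAND2 and TH, 1.07). So did 3 of 7 melanoblast genes (EDNRB2, MLANA and PMEL, 0.52) and 2 of 5 glial genes (MBP and CDH19, 0.48). Of all genes, 1.93% passed 2-fold in that direction. NEUROD4, HAND2, TH, MLANA and PMEL passed it by bounds. All 4 sympathetic ratios were bounds, in both directions, so their median is not a measured value. Of the 7 melanoblast ratios 3 were bounds. FOXD3, a member, is one of the glial genes.

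**Figure D5:**
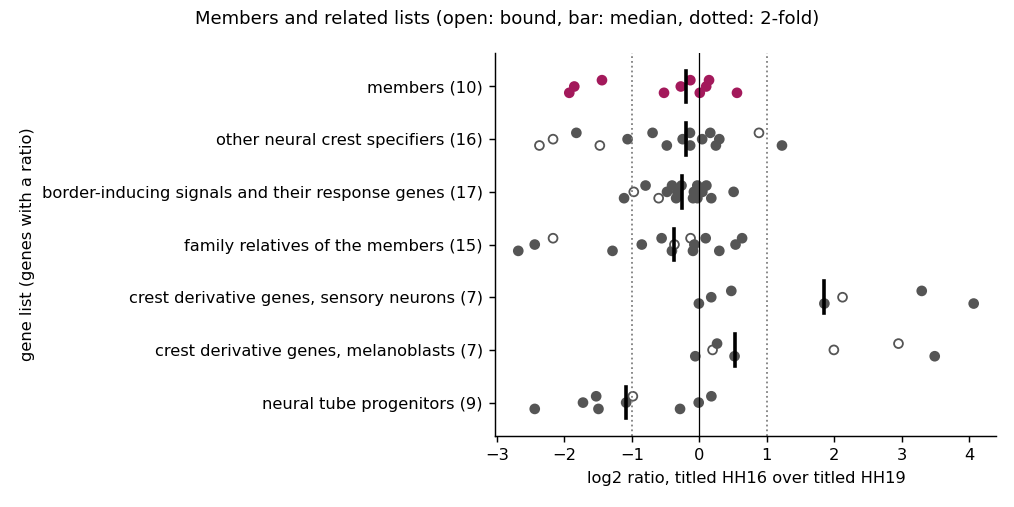
Log2 ratio of title-HH16 over title-HH19 for the members and 6 lists of related genes, with 1 point per gene, open circles for bounds, bars at the medians and the number of genes with a ratio in parentheses. Members reach down to -1.93 and up to 0.56, sensory neuron genes reach up to 4.07, and neural tube progenitor genes have a median of -1.09.

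Markers of other cell types moved with some of the members. Of 12 neural tube progenitor genes, 9 were annotated and had a ratio between the trunk arrays. Of these, 5 (PAX6, OLIG2, SOX1, SOX3 and NKX6-2) were at least 2-fold brighter on the title-HH19 array, beside 1.54% of all genes. On the title-HH16 array 0 were, beside 1.93%. The summed signal of the 9 genes was 2304 on the HH9 array, 5765 on the title-HH16 array and 11445 on the title-HH19 array, the same order as MSX2 and ZIC1. Of the 9, SOX2 alone did not share it, with 184, 583 and 515 on these arrays. The steps were uneven in the others. NKX6-1 had 190, 2602 and 3172, and SOX3 905, 920 and 2595. HES5 was nearly level between the trunk arrays, at 257 and 258, and DBX2 lay above the floor only on the title-HH19 array. Of 8 with a ratio of HH9 over title-HH16, 2 were at least 2-fold dimmer on the HH9 array, beside 6.80% of all genes. For HH9 over title-HH19, 7 of 9 were at least 2-fold dimmer on the HH9 array, beside 5.34% of all genes. The median of these 9 log2 ratios, 2 of them bounds, was -2.05. Of 6 annotated dorsal neural tube genes, WNT1, ATOH1 and RSPO1 lay under the floor on all 3 arrays, LMX1B lay above it on all 3, and WNT3A and RSPO3 lay above it only on the title-HH19 array, at 196 and 198. The summed signal of the 6 was 627, 500.3 and 829.9 on the same arrays in turn. The part of neural tube genes in the PAX7, MSX2 and ZIC1 differences was not tested. Among somite and muscle genes, 10 of 12 were annotated, and the muscle determination genes MYF5, MYOD1 and MYOG lay under the floor on all 3 arrays. Of this list, 2, 4 and 5 genes lay above the floor on the HH9, title-HH16 and title-HH19 arrays. The summed signal of this list was 1765 on the HH9 array, 1259.7 on the title-HH16 array and 1571 on the title-HH19 array. ACTC1, at 934, 82.1 and 178 on these arrays, made up much of the HH9 sum. DES ran the other way, with 34.8, 465 and 540. Of 8 annotated ectoderm and epithelial genes 6 lay above the floor on each array, with sums of 4826, 2571 and 3537.5 in the same order, and CLDN1 alone had 2112, 208 and 896. Of 11 annotated endothelial and blood genes, 9, 8 and 9 lay above the floor, with sums of 2119, 1926 and 2668. The defining endothelial gene CDH5 measured 135 signal units on the HH9 array, 86.0 on the title-HH16 array and 346 on the title-HH19 array. ERG was above the floor on the HH9 array only, at 412. Of 10 with a ratio of HH9 over title-HH19, ERG was at least 2-fold brighter on the HH9 array, beside 2.58% of all genes. CDH5, KDR, VWF and TAL1, or 4 of the 10, were at least 2-fold dimmer there, beside 5.34%. For HH9 over title-HH16 it was 1 (ERG) and 1 (KDR) of 10, beside 3.20% and 6.80%. The part of endothelial cells in the ETS1 signal was not tested. Of the crest markers 6 of 7 were annotated, and all lay above the floor on all 3 arrays except SOX9 on the title-HH16 array, at 97.8. Their summed signal was 20363, 20559 and 20524 on the HH9, title-HH16 and title-HH19 arrays, but single markers moved in opposite directions. SOX10 made up most of each sum, with 12314.6, 15746 and 17338 on these arrays. Of the 6, 2 (SOX8 and SOX9) were at least 2-fold brighter on the HH9 array than on the title-HH16 array, beside 3.20% of all genes. NGFR was at least 2-fold dimmer there, as 6.80% of all genes were. TFAP2A, a member, is one of the 6.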

How the data were processed

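Signals of HNK1-selected neural crest cells from 3 arrays, 1 per group, were used. The deposited intensity values are linear MAS5 signals, which the authors had made and normalized by an outside company, and for MAS5 the version was not given in the sources used here. Each array has a mean of about 498 once 2% of its signals are trimmed at each end. The study's methods describe biological replicates of each stage, averaged for each comparison, but not whether a deposited array is a single replicate or such a mean. After 96 control probe sets had been removed, 38439 remained, of which 27168 carried 1 gene in the platform annotation, 177 several and 11094 none. A RefSeq gene table held 26853 of these gene identifiers and changed 0 symbols.

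Signals under the 40th percentile (99.8) were raised to it. Ratios were set against 2-fold, the size the study used, with no test. The 10 members, the 8 gene lists and the 6 marker lists were chosen with earlier results of these data known. Named by rule are all members, up to 4 genes of a list past 2-fold in each direction, and the 3 genes nearest to each of the 3 members most different between the trunk arrays. Other list genes were named after their values were seen. Alternatives were other scalings, floors, probe set choices and a 3-fold threshold. Python 3.11.15, numpy 2.4.6, pandas 2.3.3 and matplotlib 3.10.9 were used.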

Additional observations from a re-analysis of the deposited data

How the results depend on the processing

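Each of the 30 member ratios was recomputed under up to 7 alternatives, 207 values in all, and 200 kept their direction and side of 2-fold or, if under 2-fold, moved by less than 0.25 (log2). Many of these values could not change. For the 9 genes above the floor on all 3 arrays, a lower floor or none returns the same ratio. For the 8 genes with 1 probe set, the probe set choices return the same ratio or drop the gene. The count of 200 is therefore no measure of robustness. ETS1 in HH9 over title-HH16 changed sign. Its log2 ratio was 1.14 by the brightest probe set, -0.017 by the median over the probe sets of a gene and -0.34 without _x_at, _s_at and _a_at probe sets. The count of members at least 2-fold brighter on the HH9 array than on the title-HH16 array was thereby 1 in place of 2, and it was 1 at 3-fold too. The count higher on the title-HH16 array than on the HH9 array was 1 in place of 2 with the floor at the 60th percentile, where the ZIC1 bound was -0.0037, and 0 at 3-fold. Leaving out the probe set types above drops MSX1 (9 members left) and moved the median for HH9 over title-HH19 to -0.49. The number of genes with both 2-fold steps, an outcome added after the data were seen, came to 17 for a floor at the 20th percentile, 4 at the 60th, 40 with no floor and 0 at 3-fold. TFAP2B in HH9 over title-HH16 passed 2-fold (1.13) only when arrays were centred on their medians. Centring moved the median of all genes in that comparison to 0.16 and in HH9 over title-HH19 to 0.10. The sign of MSX1 flipped under centring or quantile normalization in title-HH16 over title-HH19 (-0.04 and -0.02), and under quantile normalization in HH9 over title-HH19 (-0.00029). The other 3 values that moved by more were ETS1 ratios, 0.22 for title-HH16 over title-HH19 and -0.12 by both probe set choices for HH9 over title-HH19. No replicate could be left out, and no paired analysis was possible because each group has 1 array.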

Other observations

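Of 22 annotated genes among the signals that induce the border and the genes that respond to them, 17 had a ratio between the trunk arrays, 0 were at least 2-fold brighter on the title-HH16 array and 1, WNT6, on the title-HH19 array (log2 ratio of title-HH16 over title-HH19 -1.12), beside 1.93% and 1.54% of all genes. The ligand genes FGF8, FGF3, WNT8A and WNT1 lay under the floor on all 3 arrays. For HH9 over title-HH16, 1 of 16 was at least 2-fold brighter on the HH9 array and 3 were at least 2-fold dimmer there. Of all genes 3.20% and 6.80% were. For HH9 over title-HH19 it was 2 and 3 of 17, beside 2.58% and 5.34%. DLX5, a homeobox factor of the border and of cranial crest, measured 7568 signal units on the HH9 array, 1807 on the title-HH16 array and 2292 on the title-HH19 array. DLL1, a Notch ligand, ran the other way, with 299, 3014 and 3619.7 on the same arrays, and LEF1, a WNT effector, with 1408, 2943 and 3690.1.

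Of 19 genes of delamination and migration with a ratio of HH9 over title-HH16, 5 were at least 2-fold brighter on the HH9 array and 5 on the title-HH16 array, beside 3.20% and 6.80% of all genes. For HH9 over title-HH19 it was 5 and 3 of 20, beside 2.58% and 5.34%. CDH11 (log2 ratio of HH9 over title-HH16 3.01), EPHA4 (2.57), the chemokine receptor gene CXCR4 (2.08) and the neuropilin gene NRP2 (1.59) were among the first, and EDNRB2 (-3.33), CDH7 (-1.66) and CDH2 (-1.55) among the second. EDNRB2 was under 2-fold different between the HH9 array and the title-HH19 array (log2 ratio 0.16). CDH6, a cadherin gene, measured 51.6 signal units on the HH9 array, 44.1 on the title-HH16 array and 122 on the title-HH19 array, so it lay above the floor only on the last.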
